A study of Mus musculus with 12 samples.

Results

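The genes described here encode the subunits of the ionotropic and metabotropic receptors for glutamate and GABA, the main excitatory and inhibitory transmitters of the brain. They were taken from the deposited gene table by symbol, with a minimum of 60 reads summed over the 12 libraries. This gave 44 of 43346 rows. A further 3 genes of these families were under the minimum, with 36 reads for Gabrr3, 26 for Grm6 and 4 for Gabrp over all libraries. The 44 genes comprised 25 glutamate receptor genes and 19 GABA receptor genes. Among the glutamate receptors were 4 AMPA, 5 kainate, 2 delta and 7 NMDA subunit genes and 7 metabotropic (mGlu) receptor genes. Among the GABA receptors were 17 GABAA subunit genes, of which 6 encode alpha, 3 beta, 3 gamma and 5 other subunits, and 2 GABAB genes.

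RNA-seq was done on mouse brain in 3 groups of 4 libraries. Old_CP2 mice were 23 months old, carried C57BL/6;SJL-Tg as their strain label, and were given CP2 in the drinking water. CP2 is an inhibitor of mitochondrial complex I, given at 25 mg/kg/day with 0.1% PEG from the age of 9 months. Old mice matched them in age and strain label and drank the PEG vehicle alone over the same period. Young mice were 3 months old, had the strain label C57BL/6 and received neither. The genotype label was wild type in every group and titles begin with NTG, whereas the design text of the series speaks of treated APP/PS1 mice, a transgenic Alzheimer's disease model. Age, strain label and vehicle all differ between Old and Young, so their contributions cannot be told apart. Each library was made from a cross-section of brain with hippocampus and cortex, and the library kit keeps no strand information. Total counts ranged from 78021395 to 99449665 in Old_CP2, from 70548781 to 94741585 in Old and from 77469073 to 91549618 in Young. The labels do not say whether each library is a separate animal, so p-values measure the spread between libraries.

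Markers of brain regions differed between Young and both older groups, and some single libraries stood apart as well. Every Old_CP2 and Old library lay apart from every Young one in the sums over midbrain and hindbrain, thalamic and striatal genes. Summed over 18 midbrain and hindbrain marker genes, the level was 84.7 to 246 CPM in Old_CP2 and 92.4 to 171 CPM in Old, against 12.5 to 40.6 CPM in Young, where the hindbrain genes Hoxb3 and Hoxb5 were at 0 in every library. Over 16 thalamus and habenula genes the order was the opposite, with 224 to 536 CPM in Old_CP2 and 292 to 551 CPM in Old, against 664 to 1038 CPM in Young. Over 14 striatal genes the sums were 366 to 476 CPM in Old_CP2, 383 to 473 CPM in Old and 528 to 784 CPM in Young. General neuron genes, 12 in number, summed to 8610 to 9112 CPM in Old_CP2, 7816 to 8621 CPM in Old and 8276 to 8605 CPM in Young. Genes of cortex and hippocampus, 14 in number, summed to 1207 to 1501 CPM in Old_CP2, 1110 to 1445 CPM in Old and 1437 to 1598 CPM in Young. The library Old 7 also held transcripts of the cerebellum. Its Cbln3, a gene of cerebellar granule cells, was at 85.2 CPM, against 8.71 CPM in Old_CP2 15 and 0.335 to 0.794 CPM in the other libraries. In such bulk samples fewer cells of a type and less RNA per cell cannot be told apart. CPM set the reads of a gene against the total of its library, scaled by a TMM factor for the library's makeup. A gene was called at a Benjamini-Hochberg adjusted p under 0.05 over all 22553 genes tested.

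AMPA, kainate and NMDA receptors are tetrameric ion channels that carry fast excitation, and GABAA receptors are pentameric chloride channels that carry fast inhibition. Delta subunits are glutamate receptor relatives that organise synapses. Most synaptic GABAA receptors combine alpha, beta and gamma subunits. GABAA receptors with their own delta subunit, encoded by Gabrd, lie outside the synapse and give a steady inhibitory current, in the thalamus and the dentate gyrus together with alpha4 and in the cerebellum together with alpha6. The mGlu and GABAB receptors act through G proteins, and the GABAB receptor needs both of its subunits to work.

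Promoter sequence is shown for Gabra4 and Gabbr2, which were lower in Old than in Young, for Gabrr2, which was higher, and for Gabra6, which marked the libraries with cerebellar transcripts. The sequences are from RefSeq on GRCm38.p6, 5′ to 3′ on the strand of the gene, with each CG in capitals. Of the 44 genes 29 matched an entry of the RefSeq table, and Gabrd was not among them. The Gabra4 stretch lies at chr5:71658309-71658558 on the minus strand, Gabbr2 at chr4:46991874-46991964 on the minus strand, Gabrr2 at chr4:33062862-33062998 on the plus strand and Gabra6 at chr11:42321073-42321322 on the minus strand. The Gabbr2 and Gabrr2 stretches end where the deposited gene begins.
Gabra4: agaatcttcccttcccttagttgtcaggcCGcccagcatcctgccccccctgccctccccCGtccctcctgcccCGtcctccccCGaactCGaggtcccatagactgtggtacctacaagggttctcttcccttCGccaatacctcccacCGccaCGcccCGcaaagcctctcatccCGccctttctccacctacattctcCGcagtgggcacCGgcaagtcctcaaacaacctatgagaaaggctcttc
Gabbr2: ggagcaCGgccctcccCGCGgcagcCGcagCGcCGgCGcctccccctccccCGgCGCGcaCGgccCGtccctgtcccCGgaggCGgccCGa
Gabrr2: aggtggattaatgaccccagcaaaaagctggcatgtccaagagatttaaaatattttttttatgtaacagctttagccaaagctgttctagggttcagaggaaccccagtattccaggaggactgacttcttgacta
Gabra6: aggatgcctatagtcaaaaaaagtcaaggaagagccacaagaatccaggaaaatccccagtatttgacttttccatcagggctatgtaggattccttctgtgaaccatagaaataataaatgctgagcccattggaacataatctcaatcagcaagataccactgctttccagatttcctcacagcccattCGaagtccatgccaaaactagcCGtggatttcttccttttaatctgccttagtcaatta
In the 250 bases before the RefSeq start, Gabra4 held 12 CG, Gabbr2 37, Gabrr2 1 and Gabra6 2, beside a median of 6 over 32851 promoters. Counts of 37 or more occurred in 2.2% of promoters, and counts of 12 or more in 33.5%. The hexamer GGGCGG, or CCGCCC as it reads on the other strand, occurred 2 times each in the windows of Gabra4 and Gabbr2 and 0 times in those of Gabrr2 and Gabra6, and 32.7% of all promoters held it. Gabra4 and Gabbr2 thus lay behind windows richer in CG than the typical promoter, and Gabrr2 behind a poorer one. Receptor genes not called in Old against Young ranged from 0 CG (Gabra3) to 42 (Grik3), and a link between CG count and direction was not tested. The 91 bases printed for Gabbr2 held 15 CG and 0 of the hexamers, because its 250-base window reaches into the deposited gene. These matches describe the letters only.

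To set genes side by side, levels were divided by the deposited length of each gene and are normalised CPM per kilobase. The genes spanned a wide range of levels. Over the 12 libraries, among the highest were Gabbr1, the ligand-binding GABAB subunit, at 93.6, and Gria1, an AMPA subunit of hippocampal synapses, at 79.2 normalised CPM per kilobase. Next were Gabbr2 at 60.3, the kainate subunit Grik5 at 45.7 and Grin1, the subunit that every NMDA receptor holds, at 45.4 normalised CPM per kilobase. The lowest were the rho subunit genes Gabrr2 and Gabrr1, known for the retina, at 0.566 and 0.133, and Gabre at 0.46 normalised CPM per kilobase. In every library 40 of the 44 genes were above 1 normalised CPM and 38 were at 10 or more.

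**Figure D1:**
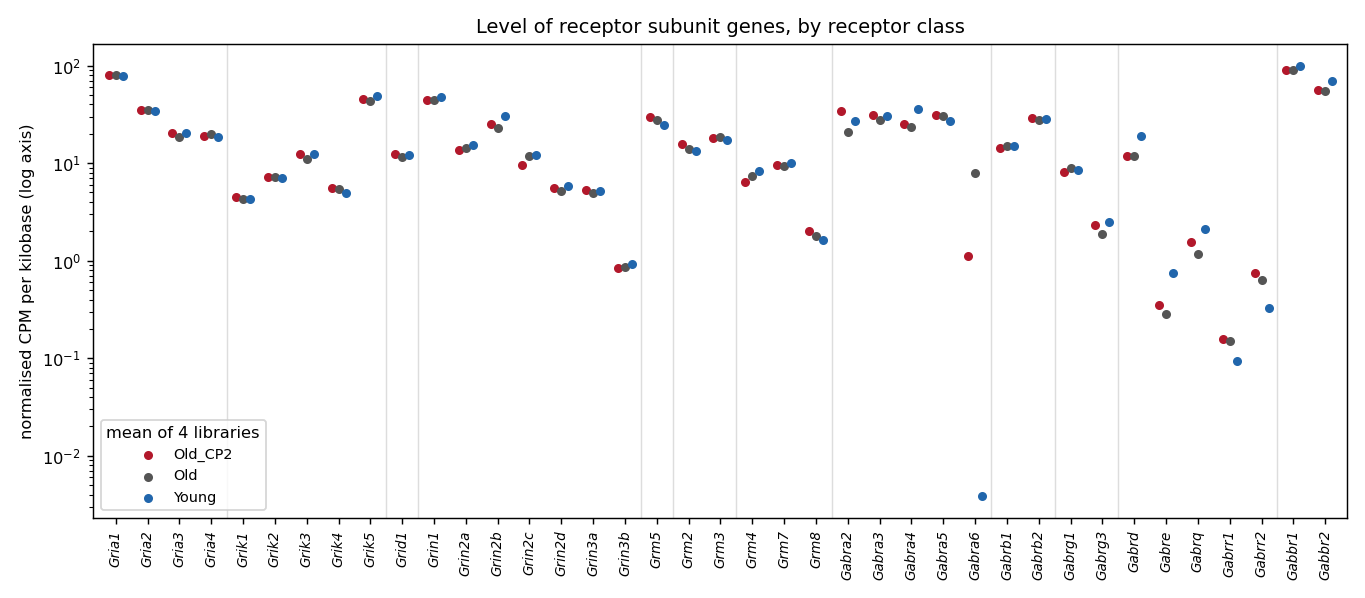
Mean level of 39 receptor subunit genes in Old_CP2, Old and Young (normalised CPM per kilobase, log axis, mean of 4 libraries per point), ordered by receptor class. Group means lie close together for most genes, from Gabbr1 at 93.6 over all libraries down to Gabrr1 at 0.133, while those of Gabra6 lie far apart.

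The shares below are of the summed level per kilobase of a receptor class. Gria1 made up 51.7 ± 1.49% of the AMPA level in Old_CP2, 51.8 ± 1.92% in Old and 51.6 ± 1.07% in Young (SD, n = 4 each). The calcium-limiting subunit Gria2 made up 22.9 ± 0.738%, 23.0 ± 1.44% and 22.9 ± 0.402% in Old_CP2, Old and Young, although its long deposited transcript of 15548 bases lowers its value per kilobase. The AMPA makeup was thus nearly the same in the 3 groups. Grik5 led the kainate genes with 60.5 ± 1.85% in Old_CP2, 60.7 ± 3.07% in Old and 62.7 ± 1.34% in Young. Grin1 led the NMDA genes with 42.8 ± 1.90% in Old_CP2, 42.3 ± 1.43% in Old and 40.5 ± 1.93% in Young. Grid1, the delta subunit gene of the forebrain, was at 12.4 ± 0.899 normalised CPM per kilobase in Old_CP2, 11.6 ± 0.889 in Old and 12.1 ± 0.732 in Young.

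Of the metabotropic receptors, Grm5 (group I, coupled to calcium release) was at 29.4 ± 2.97 normalised CPM per kilobase in Old_CP2, 27.4 ± 1.19 in Old and 24.8 ± 1.28 in Young. Grm3 led group II with 53.4 ± 1.81% in Old_CP2, 57.1 ± 3.61% in Old and 56.9 ± 1.16% in Young. Likewise Grm7 led group III with 53.1 ± 2.35% in Old_CP2, 50.6 ± 7.07% in Old and 50.1 ± 2.49% in Young. Groups II and III act by lowering cyclic AMP, and group III sits mostly on presynaptic terminals.

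Of the level of the GABAA alpha genes Gabra4 held 11.5 ± 1.51% in Old_CP2, 11.8 ± 3.00% in Old and 18% ± 2.24 in Young. Every library of the 2 older groups was below every Young library in this share. Gabrd, the GABAA delta gene, was at 11.9 ± 2.06 normalised CPM per kilobase in Old_CP2, 11.9 ± 0.895 in Old and 19.2 ± 3.01 in Young. Summed over all subunits, ionotropic glutamate over GABAA level per kilobase was 0.96 ± 0.0235 in Old_CP2, 1.00 ± 0.101 in Old and 1.02 ± 0.0567 in Young. These shares and sums are descriptions and were not tested.

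Comparing Old with Young sets 23-month vehicle mice beside untreated 3-month mice of another strain label. The GABAA delta and alpha4 genes Gabrd and Gabra4 were lower in Old, as was the GABAB subunit Gabbr2, and the rho subunit Gabrr2 was higher. edgeR called these 4 of the 44 genes (9.09%), 1 higher and 3 lower, where 6.7% of all genes tested were called, 3.96% higher and 2.74% lower. All 4 are GABA receptor genes, and 0 of the 25 glutamate receptor genes were called, 3 of them being at an unadjusted p under 0.05. An unadjusted p under 0.05 was found for 14 of the 44 genes, where 21.4% of all genes tested had one. DESeq2 called 6 of the 44 genes and limma voom 4, where of all genes tested DESeq2 called 2479, limma voom 1479 and edgeR 1511. Without Old 9 or without Young 1 edgeR called 2, and without Young 4 it called 1. The same fits called 952, 1024 and 855 of all genes tested, in that order. The median log2 fold change of the 44 genes was -0.06, beside -0.0034 over all genes tested. Old and Young values did not overlap for 6 of the 44 genes, 2 higher and 4 lower in Old. Over all genes tested the share without overlap was 13.3%, with 6.94% higher and 6.32% lower.

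**Figure D2:**
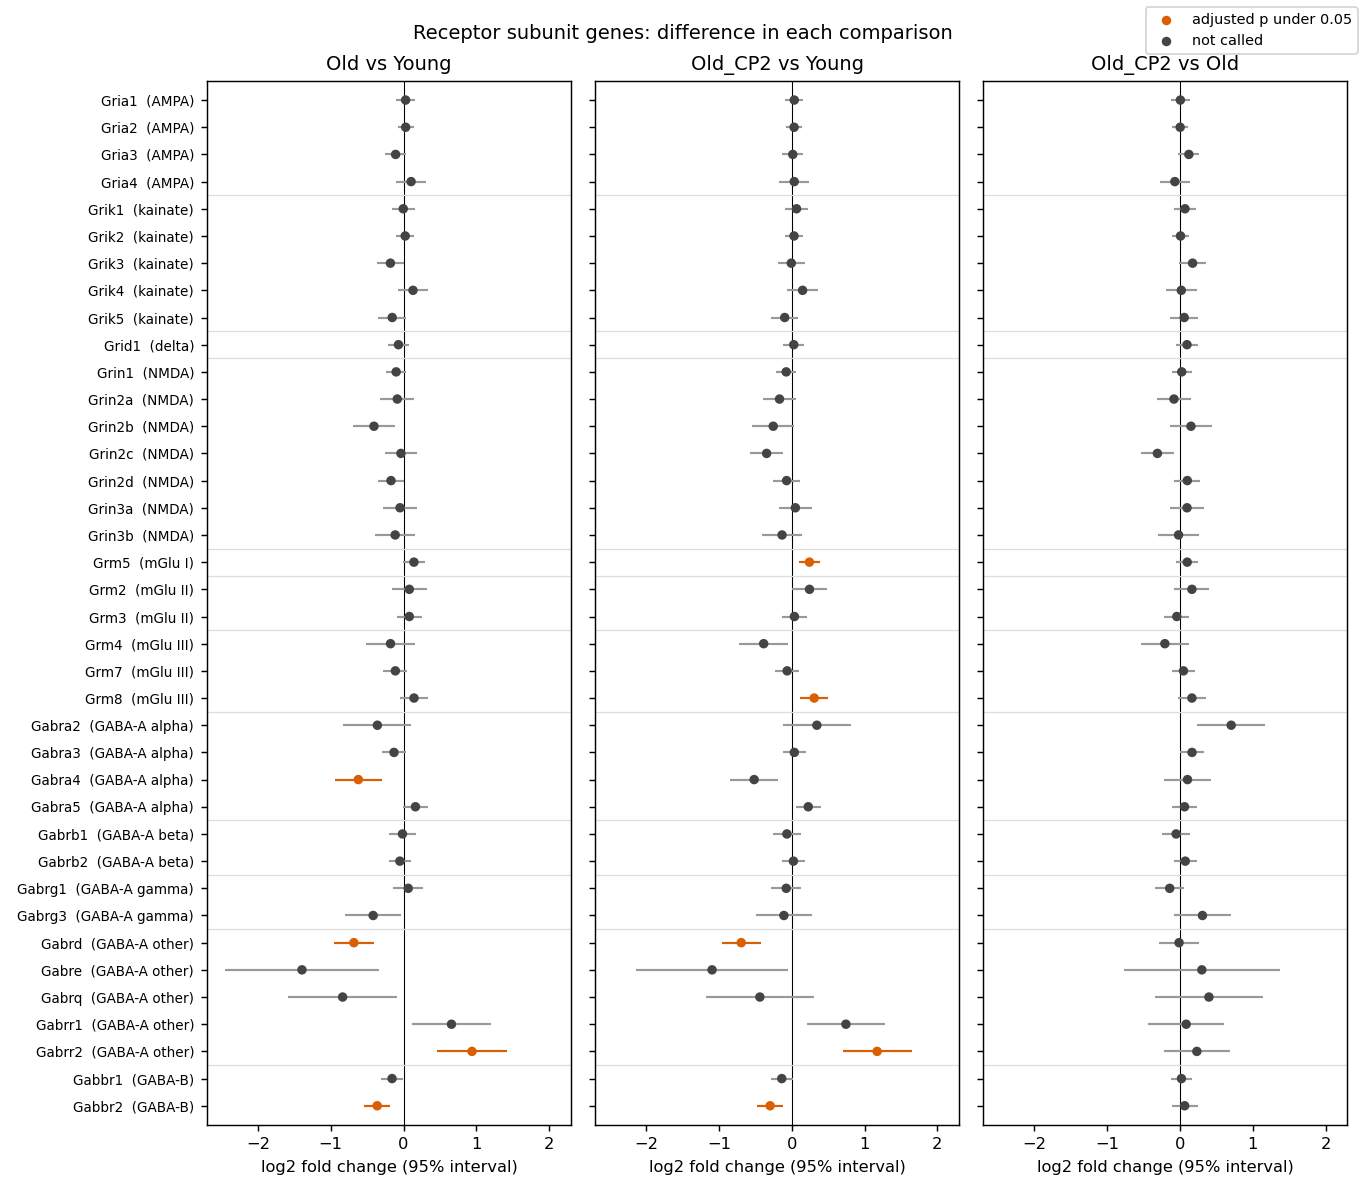
Log2 fold change with 95% interval of 38 receptor subunit genes in Old vs Young, Old_CP2 vs Young and Old_CP2 vs Old (edgeR, 4 libraries per group), ordered by receptor class; Gabra6 is left out because its estimate lies off the axis. Orange marks the genes with an adjusted p under 0.05, which number 4, 5 and 0 in the 3 panels.

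Gabrd (ENSMUSG00000029054, mm10 chromosome 4, 155384980 to 155398112) encodes the delta subunit. It was at 32.8, 36.8, 31.5 and 36.3 normalised CPM in Old, against 65.9, 44.9, 55.9 and 53.7 in Young. Every Old library was below every Young library. The log2 fold change was -0.68 ± 0.125 (SE, edgeR adjusted p = 0.00824), with a 95% interval of -0.95 to -0.41. The Old_CP2 libraries were at 30.1, 37.8, 40.3 and 28.1 normalised CPM, also below all Young ones (-0.69 ± 0.125 against Young, adjusted p = 0.00605). The call held in both comparisons without any single library.

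Gabra4 (ENSMUSG00000029211, chromosome 5, 71569734 to 71658308) encodes the alpha4 subunit that pairs with delta in thalamus and dentate gyrus. It was at 73.0, 108, 91.2 and 114 normalised CPM in Old, against 166, 126, 155 and 147 in Young. The groups did not overlap, although Old 10 came close to Young 3. In log2 terms the difference was -0.62 ± 0.151 (SE, edgeR adjusted p = 0.0288). The call was lost without Old 7 (adjusted p = 0.0649), Old 9 (0.0693), Young 1 (0.0723), Young 4 (0.0713) or Young 5 (0.0603). In Old_CP2 the values were 92.3, 119, 122 and 81.3 normalised CPM, again below all Young values, and the difference from Young missed the threshold with edgeR (-0.52 ± 0.151, adjusted p = 0.0548) and passed it with DESeq2 (0.00727).

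Gabbr2 (ENSMUSG00000039809, chromosome 4, 46662318 to 46991873) encodes the GABAB subunit that couples to the G protein. It was at 269, 317, 335 and 348 normalised CPM in Old, against 425, 391, 428 and 388 in Young, with no overlap. The log2 fold change was -0.36 ± 0.0822 (SE, edgeR adjusted p = 0.0214), and the call was lost without Young 1 (adjusted p = 0.0542) or Young 4 (0.0604). Its partner Gabbr1, which binds GABA, averaged 697 ± 58.8 normalised CPM in Old and 777 ± 16.8 in Young (SD, n = 4 each), a log2 fold change of -0.16 (adjusted p = 0.199). Per kilobase, Gabbr1 stood at 1.66 ± 0.0731 times Gabbr2 in Old and 1.44 ± 0.0575 times in Young.

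Gabrr2 (ENSMUSG00000023267, chromosome 4, 33062999 to 33095865) encodes the rho2 subunit, which forms GABA-gated channels known best from the retina. Its level was low, at 1.19, 1.22, 1.87 and 1.02 normalised CPM in Old, against 0.88, 0.763, 0.575 and 0.547 in Young. All Old values lay above all Young values, with Old 9 the highest. The fitted log2 difference was 0.94 ± 0.22 (SE, edgeR adjusted p = 0.025). The call was lost without Old 9 (log2 fold change 0.74, adjusted p = 0.0595), Young 4 (0.87, 0.0696) or Young 5 (0.85, 0.0662). The neighbouring rho1 gene Gabrr1 was at 0.276 to 0.382 normalised CPM in Old and 0.156 to 0.277 in Young (0.66 ± 0.25, adjusted p = 0.14).

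**Figure D3:**
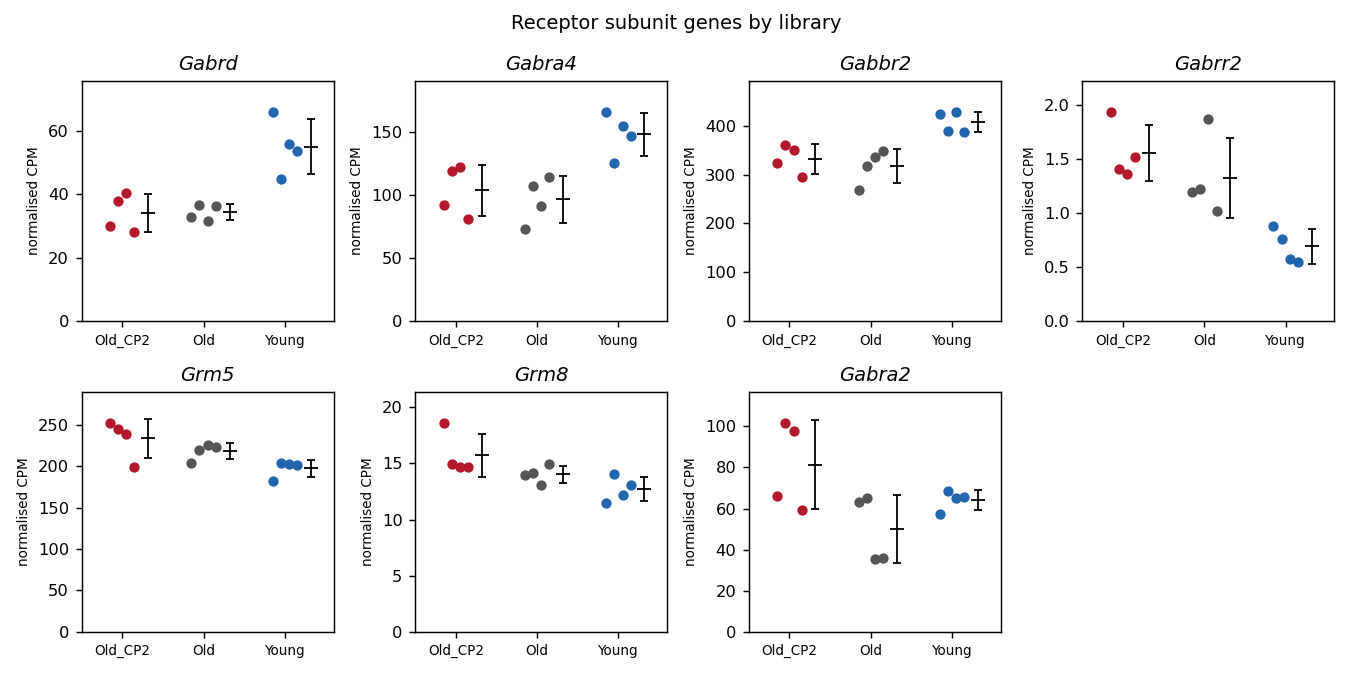
Normalised CPM of 7 receptor subunit genes in each library of Old_CP2, Old and Young (points), with mean and SD beside them (n = 4). Gabrd, Gabra4 and Gabbr2 are lower and Gabrr2 is higher in all 23-month libraries than in all Young ones, and Gabra2 falls into separate levels within Old_CP2 and within Old.

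The AMPA and kainate receptor genes gave small differences. The 4 AMPA genes had log2 fold changes from -0.11 to 0.10 and the 5 kainate genes from -0.18 to 0.13, and in both classes each 95% interval stayed within a 1.5-fold change. The 7 NMDA estimates were all below 0, from -0.41 to -0.04, with a median of -0.10, and edgeR called 0. The largest was that of Grin2b (ENSMUSG00000030209, chromosome 6, 135713232 to 136173511), the subunit of slow NMDA currents. It was at 538, 565, 620 and 524 normalised CPM in Old, against 622, 775, 821 and 761 in Young. The highest Old library lay just under the lowest Young one (-0.41 ± 0.135, 95% interval -0.70 to -0.11, adjusted p = 0.0937). DESeq2 called Grin2b (adjusted p = 0.027), as did edgeR fitted to the 2 groups alone (0.0296), while limma voom did not (0.103). Per kilobase, Grin2b stood at 1.59 ± 0.163 times Grin2a in Old and 1.97 ± 0.227 times in Young (SD, n = 4 each), with overlap between the groups. Grin2a is the subunit of faster NMDA currents of the adult forebrain. Reads of Grin1 and its antisense gene Grin1os share 1307 exon bases, and 32.1% of the exon bases of Grin3b lie in Tmem259 on the other strand, so without strand their reads cannot be told apart.

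Among the rest of the GABAA genes the beta subunits were not called. The 3 beta genes had log2 fold changes from -0.11 to -0.01. Estimates were wide for Gabre and Gabrq, the epsilon and theta subunits of hypothalamic and brainstem neurons. Gabrq was at 4.31 to 10.7 normalised CPM in Old and 5.80 to 17.3 in Young (log2 fold change -0.84 ± 0.346, adjusted p = 0.177), and it was called without Old 10 (-1.22, adjusted p = 0.0486). Gabre was at 0.905 to 2.35 in Old and 1.91 to 6.62 in Young (log2 fold change -1.39 ± 0.492, adjusted p = 0.114). Beside these, 16 hypothalamus and amygdala marker genes summed to 11.1 to 71.9 CPM in Old and 65.7 to 270 CPM in Young, and their part in these differences was not tested.

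GABAA genes lie in clusters, and the estimates of neighbours differed in sign in some clusters and shared it in others. On chromosome 5 the log2 fold changes of Old against Young were 0.06 for Gabrg1, -0.36 for Gabra2, -0.62 for Gabra4 and -0.01 for Gabrb1, in genome order. On chromosome 7 they were -0.42 for Gabrg3 and 0.16 for Gabra5. Of these 6 genes, Gabra4 alone was called.

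The calls against Young stood beside the regional markers named above. The sums over thalamic, over striatal and over midbrain and hindbrain genes each set every 23-month library apart from every Young one. The part of striatum, midbrain and hindbrain in the calls was not tested. Gabrd and Gabra4 are known from thalamic neurons, and the mean log2 CPM over 16 thalamus and habenula genes was 3.12 to 4.46 in Old_CP2 and 3.43 to 4.43 in Old, against 4.69 to 4.86 in Young. The marker mean was highest in Old_CP2 13 and Old 10 within the 23-month groups. These were the highest libraries of their groups for Gabra4 (122 and 114 normalised CPM), whereas Gabrd was highest in Old_CP2 13 (40.3) and Old 8 (36.8), and Gabbr2 in Old_CP2 12 (361) and Old 10 (348). With this mean as a covariate, a fit chosen after seeing the data, 0 of the 44 genes were called in either comparison with Young. Calls over all genes tested fell from 1511 to 34 in Old against Young and from 1707 to 44 in Old_CP2 against Young. The Gabrd estimate was then -0.36 (adjusted p = 0.433), that of Gabra4 -0.20 (0.732), that of Gabbr2 -0.20 (0.581) and that of Gabrr2 0.49 (0.608). Because the marker means of the 23-month groups do not overlap those of Young, part of this loss is built into the fit. Astrocyte markers were higher in Old, at 5854 to 6244 CPM summed over 12 genes, against 4443 to 5072 CPM in Young. Microglia markers summed to 463 to 480 CPM in Old and 324 to 417 CPM in Young, and choroid plexus and ependyma markers to 277 to 1797 CPM in Old and 2008 to 3219 CPM in Young. The part of these cells in the calls was not tested.

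**Figure D4:**
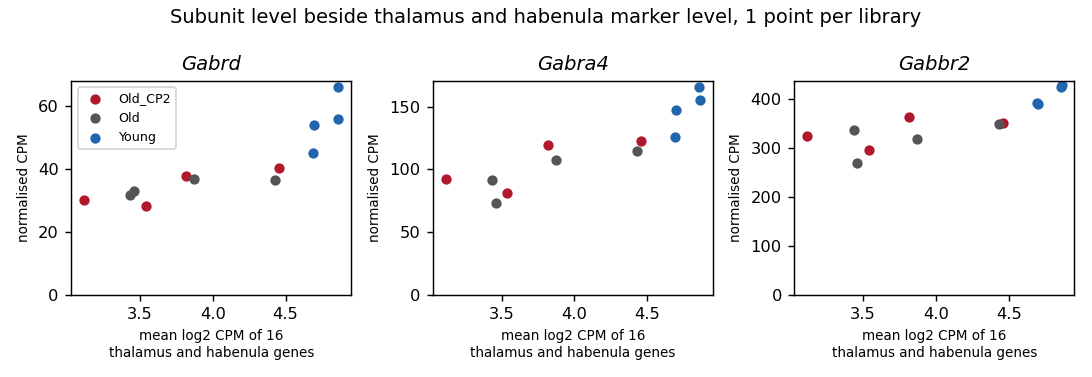
Normalised CPM of Gabrd, Gabra4 and Gabbr2 against the mean log2 CPM of 16 thalamus and habenula genes, with 1 point per library of Old_CP2, Old and Young. The Young libraries sit at the right, at marker means of 4.69 to 4.86, and the 23-month libraries at 3.12 to 4.46.

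Comparing Old_CP2 with Old addresses the treatment at matched age and strain label. None of the receptor genes passed the test in this comparison. edgeR called 0 of 44, as did DESeq2 and limma voom, where 0.0443% of all genes tested were called by edgeR, 0.0266% higher and 0.0177% lower. An unadjusted p under 0.05 was found for 3 genes (6.82%), where 6.31% of all genes tested had one. The median log2 fold change was 0.06, beside 0.0017 over all genes tested. The 95% interval stayed within a 1.5-fold change for 36 of the 44 genes. Among the 8 genes with wider intervals were Gabra2, Gabra6, Gabrg3, Gabre, Gabrq, Gabrr1 and Gabrr2. Old_CP2 and Old values did not overlap for 1 gene, Grin2c, which was lower in Old_CP2. Over all genes tested the share without overlap was 3.44%, with 1.62% higher and 1.82% lower.

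The smallest p belonged to Gabra2 (ENSMUSG00000000560, chromosome 5, 70961057 to 71095849), an alpha subunit of limbic synapses and a target of anxiety-reducing benzodiazepines. It was at 66.3, 102, 98.0 and 59.3 normalised CPM in Old_CP2, against 63.0, 65.3, 35.4 and 36.0 in Old. Young libraries were at 57.1, 68.5, 65.0 and 65.4. Of the Old libraries 2 lay near the Young level and 2 at a lower one, and of the Old_CP2 libraries 2 lay near it and 2 at a higher one. The log2 fold change was 0.70 ± 0.216 (SE, edgeR unadjusted p = 0.00616, adjusted p = 0.513). Of its neighbours on chromosome 5, Gabra4 was also higher in Old_CP2 12 and 13 (119 and 122 normalised CPM) than in Old_CP2 11 and 15 (92.3 and 81.3). In Old the order of Gabra4 was another, since Old 10 was its highest library and among the lower ones of Gabra2. Gabrb1 was at 38.2 to 48.1 normalised CPM in Old_CP2 and 43.7 to 51.9 in Old, and Gabrg1 at 36.4 to 42.2 in Old_CP2 and 37.8 to 46.6 in Old. The estimate thus rests on libraries of unlike level within each group, and the labels of the 23-month mice do not give the makeup of the mixed strain background of each mouse, whose part was not tested. Single libraries left out gave estimates between 0.57 and 0.85 with an adjusted p of 0.179 or more.

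Grin2c, an NMDA subunit of cerebellar granule cells, thalamus and astrocytes, was at 40.7, 49.5, 53.0 and 50.9 normalised CPM in Old_CP2, against 71.5, 54.4, 56.2 and 58.2 in Old. The lowest Old library lay just above the highest Old_CP2 one. The log2 fold change was -0.31 ± 0.105 (SE, edgeR unadjusted p = 0.0112, adjusted p = 0.64), and it was -0.22 without Old 7. Astrocyte markers summed to 5018 to 5567 CPM in Old_CP2 and 5854 to 6244 CPM in Old, and their part in this difference was not tested. The alpha3 gene Gabra3 averaged 122 ± 12 normalised CPM in Old_CP2 and 109 ± 3.92 in Old (log2 fold change 0.17, adjusted p = 0.771), the kainate gene Grik3 111 ± 15.1 in Old_CP2 and 98.6 ± 2.19 in Old (0.17, adjusted p = 0.796), and Grm8 15.7 ± 1.92 in Old_CP2 and 14.0 ± 0.738 in Old (0.17, adjusted p = 0.819). The genes called between Old and Young gave estimates near 0 here, with -0.01 for Gabrd (95% interval -0.28 to 0.26), 0.10 for Gabra4 (-0.22 to 0.43) and 0.07 for Gabbr2 (-0.11 to 0.24). For Gabrr2 the estimate was 0.23 (-0.22 to 0.69).

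Old_CP2 was also set against Young, which shares libraries with both comparisons above. edgeR called 6 of the 44 genes (13.6%), 3 higher and 3 lower, where 7.57% of all genes tested were called, 4.63% higher and 2.94% lower. It called 2 without Old_CP2 11, Old_CP2 12, Young 1 or Young 4, and 3 without Young 5. In that order these fits called 827, 1043, 1050, 1036 and 1210 of all genes tested, against 1707 with all 12 libraries. An unadjusted p under 0.05 was found for 15 genes, against 23.2% of all genes tested. Old_CP2 and Young values did not overlap for 11 genes, 5 higher and 6 lower, where the share over all genes tested was 15.5%, with 8.42% higher and 7.07% lower. Among the lower genes were Gabrd and Gabbr2 again, with Gabbr2 at 323, 361, 350 and 294 normalised CPM in Old_CP2, below all Young values (-0.30 ± 0.0821, adjusted p = 0.0448). Higher was Gabrr2, at 1.94, 1.41, 1.37 and 1.52 normalised CPM, above all Young values (1.17 ± 0.219, adjusted p = 0.00726). The calls of Gabrd and Gabrr2 held without any single library.

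Higher as well were a pair of mGlu genes. Grm5 (ENSMUSG00000049583, chromosome 7, 87602544 to 88134907) was at 253, 245, 239 and 200 normalised CPM in Old_CP2, against 183, 204, 203 and 202 in Young. The library Old_CP2 15 lay within the Young range and the other three above it (0.24 ± 0.0687, edgeR adjusted p = 0.0484). In Old it was at 205, 220, 226 and 224 normalised CPM, all above Young, and not called (0.14, adjusted p = 0.255). Grm8 (ENSMUSG00000024211, chromosome 6, 27275121 to 28135178), a presynaptic group III receptor, was at 18.6, 14.9, 14.7 and 14.7 normalised CPM in Old_CP2, against 11.5, 14.0, 12.2 and 13.1 in Young. All Old_CP2 values lay above the Young ones, Old_CP2 11 by the widest margin (0.31 ± 0.0878, adjusted p = 0.0494).

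The calls of Gabbr2, Grm5 and Grm8 lay near the threshold. The Gabbr2 call was lost without any 1 of the 8 libraries (adjusted p from 0.0504 to 0.114). The Grm5 call was lost without any library but Old_CP2 15 (0.0624 to 0.141). The Grm8 call was lost without any but Old_CP2 15 and Young 3 (0.057 to 0.137), with an estimate of 0.22 without Old_CP2 11.

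Gabra6 (ENSMUSG00000020428, chromosome 11, 42306437 to 42321072), the alpha subunit of cerebellar granule cells, was high in the libraries with cerebellar transcripts. It was at 0.114, 0.0713, 0.0867 and 10.8 normalised CPM in Old_CP2, at 78.9, 0.176, 0.136 and 0.0213 in Old and at 0.0129, 0, 0.0255 and 0 in Young. Only Old 7 and Old_CP2 15 were above 1 normalised CPM. The difference between Old and Young was not called (edgeR adjusted p = 0.0765), and its fitted size depends on the prior count. Old 7 also had the highest Gria4, an AMPA subunit gene, at 158 normalised CPM against 109 to 112 in the rest of Old. Its Grm4, a group III receptor of granule cell terminals, was at 55.3 against 30.6 to 39.7. Grm4 was at 40.8 to 52.7 normalised CPM in Young and at 33.8 in Old_CP2 15, so its level did not follow the cerebellar transcripts across all libraries. The cerebellar Car8, a Purkinje cell gene, was at 101 CPM there and 23.8 CPM in Old_CP2 15, against 7.5 to 11.1 CPM elsewhere. The 13 cerebellum list genes summed to 976 CPM in Old 7 and 427 to 560 CPM in the other libraries. Without Old 7 and Old_CP2 15, a choice made after seeing the data, edgeR called 0 of the 44 genes in Old_CP2 against Old, 6 in Old against Young and 7 in Old_CP2 against Young. Of all genes tested it called 32, 1212 and 1968 in that order.

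**Figure D5:**
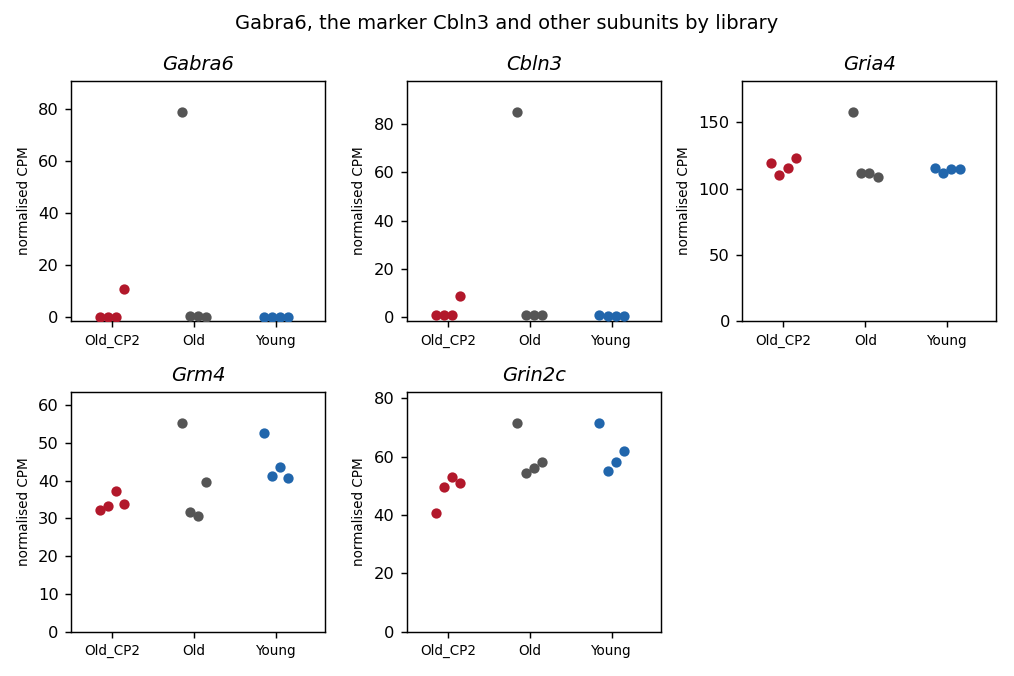
Normalised CPM of Gabra6, the cerebellar marker Cbln3, Gria4, Grm4 and Grin2c in each library of Old_CP2, Old and Young (points). Old 7 is the highest library for Gabra6 (78.9), Cbln3 (85.2), Gria4 (158) and Grm4 (55.3).

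The proteins that serve these receptors were followed in 71 further genes. In Old against Young edgeR called 10 of them (14.1%), 7 higher and 3 lower, where 6.7% of all genes tested were called, 3.96% higher and 2.74% lower. It called 6 without Old 9, Young 1 or Young 4, fits that called 952, 1024 and 855 of all genes tested, against 1511. With the thalamus mean as a covariate edgeR called 0 of the 71 in either comparison with Young. That fit called 34 of all genes tested in Old against Young and 44 in Old_CP2 against Young, and part of the loss is built into it. Of 19 auxiliary subunits and other partners of glutamate receptors 2 were lower, both of the stargazin family that carries AMPA receptors to the membrane. Cacng5 was at 16.2, 14.9, 14.1 and 18.6 normalised CPM in Old, against 27.5, 25.4, 27.1 and 23.5 in Young, with no overlap (-0.69 ± 0.0931, adjusted p = 0.00159). Cacng4 averaged 24.7 ± 4.64 normalised CPM in Old and 35.8 ± 3.95 in Young (log2 fold change -0.54, adjusted p = 0.034). Of 20 scaffold and clustering genes 1 was lower, Shank3, which builds the postsynaptic density, at 253 ± 28.7 in Old and 351 ± 54.7 normalised CPM in Young (-0.47, adjusted p = 0.0284).

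Of 14 GABA receptor partners 2 were higher in Old. Kctd12, an auxiliary subunit of GABAB receptors, averaged 142 ± 8.69 normalised CPM in Old and 119 ± 5.40 in Young (log2 fold change 0.25, edgeR adjusted p = 0.0107), and Iqsec3, a partner of the inhibitory scaffold gephyrin, 249 ± 18.6 in Old and 196 ± 18.6 in Young (0.35, adjusted p = 0.0166). Of 18 genes of transmitter synthesis and transport 5 were higher. The GABA-making enzyme Gad1 was at 385, 409, 411 and 404 normalised CPM in Old, against 354, 348, 327 and 322 in Young, with no overlap (0.25 ± 0.0589, adjusted p = 0.0251). Also higher were the glutaminase gene Gls2 (0.32, adjusted p = 0.0107) and Aldh5a1, a gene of the GABA breakdown pathway (0.18, adjusted p = 0.0396). So was Slc6a13, a GABA transporter of meninges and liver (0.99, adjusted p = 0.0462).

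In Old_CP2 against Old edgeR called 0 of the 71 genes, as few as DESeq2 and limma voom, where edgeR called 0.0443% of all genes tested. An unadjusted p under 0.05 was found for 2 (2.82%), where 6.31% of all genes tested had one. Kctd12 was among these, at 126 ± 2.72 normalised CPM in Old_CP2 and 142 ± 8.69 in Old (log2 fold change -0.17, edgeR adjusted p = 0.484). It was not called in Old_CP2 against Young (0.09, adjusted p = 0.322). In Old_CP2 against Young 7 were called (9.86%), 3 higher and 4 lower, where 7.57% of all genes tested were called, 4.63% higher and 2.94% lower. The lower genes were Cacng5 (log2 fold change -0.63, adjusted p = 0.00213), Cacng4 (-0.50, 0.0407), Shank3 (-0.59, 0.00945) and Pick1, which binds AMPA receptor tails (-0.19, 0.0319). The higher ones were Gad1 (0.25, 0.023), Iqsec3 (0.29, 0.0313) and Gls2 (0.23, 0.0443). Without Old_CP2 11 or Old_CP2 12 edgeR called 2 in Old_CP2 against Young, without Young 1 it called 4, and without Young 4 or Young 5 it called 3. These fits called 827 to 1210 of all genes tested, against 1707 with all libraries. The Cacng5 and Shank3 calls against Young in Old_CP2 held without any single library. Those of Cacng4, Pick1, Gad1, Iqsec3 and Gls2 were each lost without 4 to 6 of the single libraries, Old_CP2 11, Old_CP2 12 and Young 4 among them, with adjusted p-values from 0.0514 to 0.124.

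Leaving out Old 7 (0.087), Old 8 (0.0794), Old 9 (0.0863), Young 1 (0.0702), Young 3 (0.0866) or Young 4 (0.0742) ended the Cacng4 call in Old against Young. The Shank3 call there ended without Old 7 (0.0678), Old 8 (0.0517), Young 1 (0.0679) or Young 4 (0.0662). The Gad1 call ended without Old 9 (0.0503), Young 4 (0.0604) or Young 5 (0.0634), and that of Aldh5a1 without Old 9, Old 10, Young 1, Young 4 or Young 5 (0.0595 to 0.09). The Slc6a13 values overlapped between Old and Young, and its call was lost without Old 7 (0.112), Old 8 (0.0945), Old 9 (0.0711), Young 1 (0.108), Young 3 (0.0693) or Young 5 (0.104). Cacng5, Kctd12, Iqsec3 and Gls2 kept their calls in Old against Young without any single library.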

How the data were processed

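RNA was sequenced from 12 mouse brain libraries, 4 per group. The tools named in the submitters' processing notes are TopHat, Subread's featureCounts and bcl2fastq, with mm10 as the genome build and versions not given in the sources used here. Per the file headers, the deposited table gives a gene count and an RPKM value per library, made by the authors. The RPKM values were not used for any result. Gene lengths per kilobase are the deposited ones. The deposited counts went into a quasi-likelihood model of edgeR 4.0.16 under R 4.3.3 (TMM factors, filterByExpr by group, F test, 12 libraries, group as the only term). Fold changes carry edgeR's prior count, and the SE is taken from the F statistic. Every adjusted p is from this test unless another tool is named. The test was also run on simulated counts, which held no regional differences between groups, so that run cannot speak to such differences. Alternatives were RLE and upper quartile factors, no filter, DESeq2 1.42.0, limma voom 3.58.1, fits of 2 groups and each library left out. The genes and lists described were chosen with earlier results of these data known. By rule the text names every called receptor gene, or the 5 of smallest p, the leading gene of each class and up to 4 called partner genes per list; Grin2b, Gabbr1, Gabrr1, Gabre, Gabrq and Slc6a13 were added after their values were seen. Libraries of a group were no copies of each other (chi-square per gene of at least 14.7). The marker genes Ccn3, Drd1 and Lhfpl3 were not analysed here. Some genes are counted in the totals but not reported by name here, nor drawn.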

Additional observations from a re-analysis of the deposited data

Results flagged for a closer look

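In 117 sets of 4 libraries, 1 set per gene and group over 39 receptor genes, 11 held a library far from the other three, with a gap to its nearest neighbour above Dixon's 95% critical share of the whole range. Chance gives about 1 in 20. All values are normalised CPM.

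The library Old 7 stood apart in Gabra6, at 78.9 against 0.0213 to 0.176 in the rest of Old, and in Gria4, at 158 against 109 to 112. Old_CP2 15 stood apart in Gabra6, at 10.8 against 0.0713 to 0.114, and in Gabra3, at 105 against 127 to 130 in the rest of Old_CP2. The cerebellar gene Cbln3 was highest in these same libraries, at 8.71 in Old_CP2 15 and 85.2 in Old 7. Old_CP2 15 also had the highest sum over the midbrain and hindbrain genes, at 246 against 84.7 to 113 in the rest of Old_CP2. Its sum over the cerebellum list genes, 494, lay within the range of the libraries other than Old 7. The part of either region in its low Gabra3 was not tested.

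Old 10 stood apart in 4 genes, all high. Gabre was at 2.35 against 0.905 to 1.13, Gabrq at 10.7 against 4.31 to 5.04, Grin3a at 73.5 against 56.8 to 57.0 and Gabrb1 at 51.9 against 43.7 to 44.6. Old 10 also had the highest mean log2 CPM over the thalamus and habenula genes in its group, at 4.43 against 3.43 to 3.87. Its sum over the hypothalamus and amygdala genes was the highest of Old as well, at 71.9 against 11.1 to 27.2. The part of either region in these genes was not tested.

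The rest were single genes. Grm8 was at 18.6 in Old_CP2 11, against 14.7 to 14.9 in the rest of Old_CP2. In Young 1, Grm5 was at 183 against 202 to 204 and Grin3b at 3.59 against 2.88 to 2.92.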

How the results depend on the processing

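Old_CP2 against Old gave 0 called genes in both the receptor set and the 71 partner genes under every alternative run. Of the results recomputed under each alternative, Gabbr1 in Old against Young, not called, changed sign, from -0.16 to 0.028 with the covariate described next (adjusted p = 0.941), and no other did; Gabra6 was not among them. With the thalamus and habenula mean as a covariate, a fit chosen after seeing the data, all 4 counts of calls against Young were 0 (4 and 10 genes in Old, 6 and 7 in Old_CP2, without it). Single libraries left out gave 1 to 6 receptor and 6 to 11 partner genes in Old against Young, and 2 to 5 and 2 to 7 in Old_CP2 against Young. Of all genes tested they gave 855 to 1258 in Old against Young and 827 to 1590 in Old_CP2 against Young. Fewer libraries give the test less to work with. DESeq2 called 13 partner genes in Old_CP2 against Young, where edgeR called 7. Over all genes tested DESeq2 called 2479 in Old against Young, 108 in Old_CP2 against Old and 2647 in Old_CP2 against Young, where edgeR called 1511, 10 and 1707. The Grm8 call in Old_CP2 against Young was also lost with RLE factors (adjusted p = 0.0504), upper quartile factors (0.0507), no filter (0.0521), limma voom (0.0517) and a fit of the 2 groups (0.075), and that of Grm5 with limma voom (0.052) and a fit of the 2 groups (0.0647). The Gabbr2 call there was lost with no filter (0.0559). For these the cause was not tested. No paired analysis was possible because the groups share no replicate number. Depth limits mainly Gabrr1, Gabrr2 and Gabre, which were low in level, and Gabra6, which was near 0 outside 2 libraries.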
